A study of Homo sapiens with 2 samples.

Results

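The genes described here lie next to each other on chromosome 5q14-q21, from RASA1 to FER, and include CHD1, a gene that is recurrently deleted in prostate cancer. Members were 34 genes along this stretch, picked by name. They were chosen by their log2 differences between these same arrays, so these differences are a description and carry no test. Of the 34 genes, 31 had at least 1 probe set under their own name (76 probe sets in all), out of 19735 named genes on the array. RASA1, FAM172A and LNPEP were not analysed here, since no probe set was listed under their names or older names in the annotation used.

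The array labelled C4-2B-MDVR was compared with the array labelled C4-2B. C4-2B-MDVR is an enzalutamide-resistant human prostate cancer line that, per the series description, was derived from C4-2B by prolonged growth with the drug, and C4-2B is its enzalutamide-sensitive parent. Enzalutamide blocks the androgen receptor. Both lines were grown in serum-containing medium without treatment, and each was measured once, on 1 Affymetrix expression array. The free-text descriptions of the samples disagree with this, because that of the resistant sample names TaxR, a docetaxel-resistant line, and that of C4-2B calls it docetaxel sensitive. The title, source and cell line labels were followed.

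CHD1 encodes a chromatin remodeller that binds methylated histone tails at active genes and works with elongation factors. Loss of one or both copies of 5q around CHD1 is known from a subset of prostate cancers, and CHD1 loss has been linked there to changed androgen receptor binding and to antiandrogen resistance. A lost or gained stretch of chromosome shifts the transcripts of many neighbouring genes together. DNA copy number was not measured on these arrays.

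Since each line had a single array, replicate spread is unknown and no value below carries a p-value, SD or SE. Values are intensities on a linear scale, and a difference is the log2 value in C4-2B-MDVR less the log2 value in C4-2B, so that −1 is 2-fold lower in C4-2B-MDVR. A gene was above the detection floor when the array on which it was brighter reached that array's median, an intensity of 43.5 for C4-2B-MDVR and 41.9 for C4-2B. A gene with more than 1 probe set was read from the probe set that was brightest on average. Over all probe sets the arrays correlated with Pearson's r of 0.978, which describes the arrays only. Of 7 measured luminal prostate markers all were above the floor, HOXB13 with an intensity of 1950.4 in C4-2B-MDVR and 1879 in C4-2B and KRT18 with 4038 in C4-2B-MDVR and 4337 in C4-2B, and SPDEF was the 1 marker beyond 2-fold (−1.02). Of 9 markers of fibroblasts, endothelium and blood cells, COL1A2, LUM, CDH5, PTPRC and CD14 were under the floor on both arrays, and PDGFRB, PECAM1, VWF and CD3E read between 58.9 and 80.4.

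Most of the 5q genes were lower on the C4-2B-MDVR array, by modest amounts. Of the 31 measured members 25 were above the floor, on both arrays in every case, and 19 of these (76%) had a difference below 0, against 44.8% of all genes above the floor. The median difference of the 25 members was −0.53, which is 69.5% of the C4-2B intensity, and their quartiles lay at −0.77 and −0.15. The same median over all 13424 genes above the floor was 0.04, with quartiles at −0.22 and 0.26. Because this contrast chose the members, these shares are given for orientation and nothing is read from them.

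By the 2-fold threshold 4 members (16%) were lower, MBLAC2, NR2F1, RGMB and NUDT12, against a background of 3.50% of genes. In the higher direction 0 members passed it, against a background of 3.17%. At 1.5-fold 10 members were lower (background 9.32%) and 1, PAM, was higher (background 8.27%). The lower ones added TMEM161B, POLR3G, SKIC3, CAST, GIN1 and ARRDC3. Just inside the 2-fold threshold stood NUDT12 at −1.11, and just outside it SKIC3 at −0.91 and TMEM161B at −0.90.

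**Figure D1:**
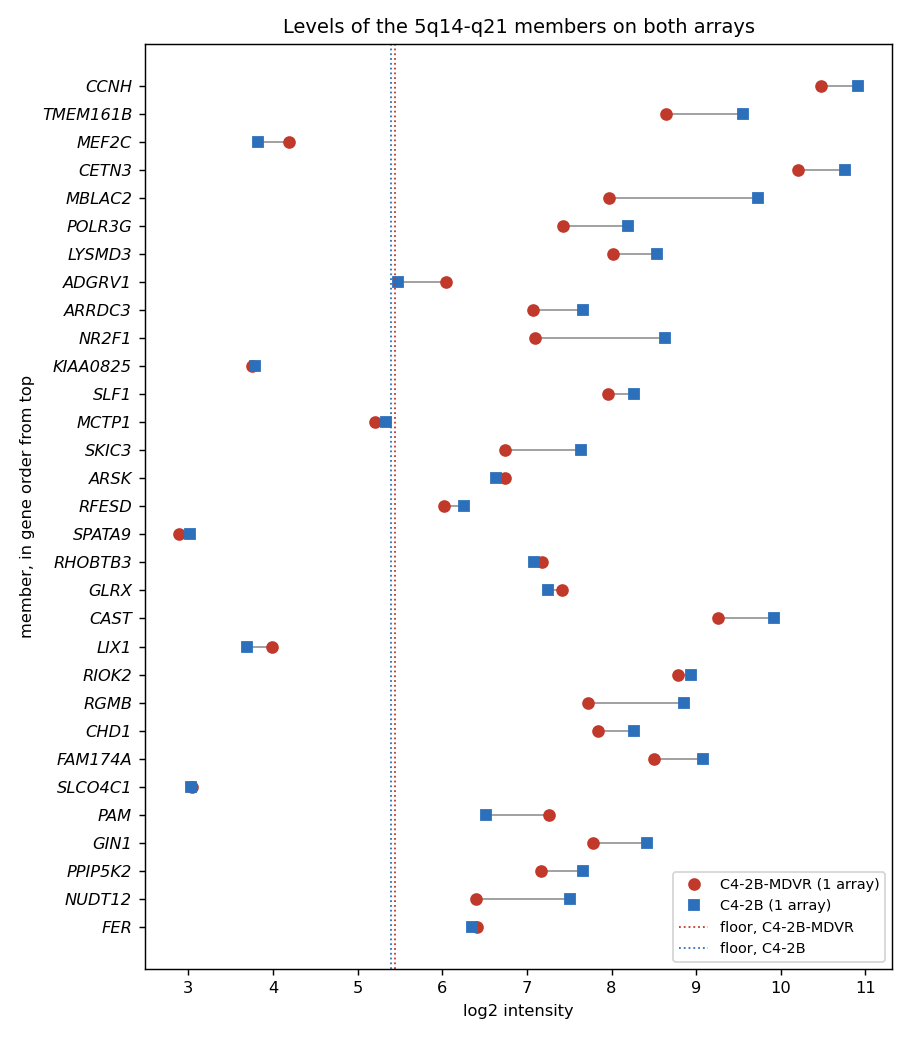
Log2 intensity (x axis) of the 31 measured members, in gene order from the top, on the C4-2B-MDVR array (circles) and the C4-2B array (squares), 1 array each, with the detection floor of each array as a dotted line. For MBLAC2, NR2F1, RGMB and NUDT12 the circle lies more than 1 log2 unit left of the square, while for PAM it lies 0.74 to the right.

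Among regulators of chromatin and transcription, CHD1 itself was lower by less than the middle of the members. Its intensity was 229 in C4-2B-MDVR and 308 in C4-2B, a difference of −0.43, or 74.3% of the C4-2B intensity. The other CHD1 probe set read 156 in C4-2B-MDVR and 229 in C4-2B, a difference of −0.55, but the suffix of its name (_x_at) marks sequence shared with other transcripts. The probe sets read for PAM, CAST and the noncoding TMEM161B-DT, all described further on, carry the same suffix. Counted from the lowest difference CHD1 came 16th of 25 members, so the stretch was not lowest at the gene it is named for.

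NR2F1, an orphan nuclear receptor of the COUP family, had an intensity of 137 in C4-2B-MDVR and 397 in C4-2B. Its difference of −1.54 left 34.5% of the C4-2B intensity, read from its single probe set. The neighbouring long noncoding gene NR2F1-AS1, which is no member, was lower as well, with 47.2 in C4-2B-MDVR, close to the floor, and 149 in C4-2B (−1.65). Its other probe sets, under the floor on both arrays, differed by −0.50 and 0.21. CCNH, the cyclin of the CDK-activating kinase and of the general transcription factor TFIIH, read 1419.6 in C4-2B-MDVR and 1934 in C4-2B (−0.45). POLR3G, a subunit of RNA polymerase III that alternates with its paralogue POLR3GL, read 172 in C4-2B-MDVR and 294 in C4-2B (−0.77), and its second probe set above the floor differed by −0.38. MEF2C, a transcription factor of muscle and neurons, was under the floor on both arrays with all 3 of its probe sets.

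The upstream sequences of CHD1 and NR2F1 are shown because the 2 genes are the namesake of the stretch and its lowest transcription factor, and that of RGMB, described further on, because it is the neighbour of CHD1 and differed more. PAM is shown as the member with the highest difference. Each line gives the 250 bases before the outermost annotated start, 5′ to 3′ on the gene's strand, from RefSeq on GRCh38.p14, at chr5:98929008-98929257 (minus strand) for CHD1, chr5:93582972-93583221 (plus strand) for NR2F1, chr5:98768382-98768631 (plus strand) for RGMB and chr5:102754533-102754782 (plus strand) for PAM. Capitals mark GC boxes (GGGCGG) and CCAAT boxes (CCAAT), on either strand.
CHD1: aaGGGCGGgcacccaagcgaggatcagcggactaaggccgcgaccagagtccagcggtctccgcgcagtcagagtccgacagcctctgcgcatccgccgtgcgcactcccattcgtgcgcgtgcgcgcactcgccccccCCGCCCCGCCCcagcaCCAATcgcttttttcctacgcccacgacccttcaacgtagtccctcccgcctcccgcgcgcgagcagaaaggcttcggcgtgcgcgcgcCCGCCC
NR2F1: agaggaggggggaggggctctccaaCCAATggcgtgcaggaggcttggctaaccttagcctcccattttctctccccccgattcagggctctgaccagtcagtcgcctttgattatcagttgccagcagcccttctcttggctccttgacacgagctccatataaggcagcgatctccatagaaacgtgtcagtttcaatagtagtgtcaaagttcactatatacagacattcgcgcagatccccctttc
RGMB: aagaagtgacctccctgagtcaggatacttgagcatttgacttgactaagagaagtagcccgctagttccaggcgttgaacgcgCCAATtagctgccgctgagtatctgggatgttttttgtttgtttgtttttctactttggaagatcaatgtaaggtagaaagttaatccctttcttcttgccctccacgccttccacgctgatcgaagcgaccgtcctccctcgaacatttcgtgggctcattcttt
PAM: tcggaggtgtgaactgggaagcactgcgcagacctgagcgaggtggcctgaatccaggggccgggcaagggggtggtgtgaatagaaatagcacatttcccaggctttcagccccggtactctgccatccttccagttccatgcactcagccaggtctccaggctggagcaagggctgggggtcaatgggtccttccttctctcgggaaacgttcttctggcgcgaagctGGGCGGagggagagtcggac

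The CHD1 window was rich in CG pairs, with 36 of them and 4 GC boxes, 2 of which overlap, whereas the NR2F1 window held 8 CG pairs, the RGMB window 12 and the PAM window 11. Of the 34 members 28 had a promoter entry, and CETN3, MBLAC2, POLR3G, FAM172A, LIX1 and NUDT12 had none. A GC box was found on either strand in 16 of these 28 (57.1%), against 42.2% of 27305 promoter windows of the same length, 1 for each gene. CCAAT was found in 11 (39.3%, against 33.0%), the ETS core CCGGAA in 9 (32.1%, against 14.8%) and TATAAA in 1 (3.57%, against 11.2%), on either strand. Windows of neighbours that start close together on opposite strands overlap, so these counts are not independent. KIAA0825 and SLF1 share their ETS cores, and GIN1 and PPIP5K2 share 1 ETS core and 2 GC boxes, each counted for both genes. The androgen receptor half-site AGAACA was present in 5 (17.9%, against 12.4%), in MEF2C, SPATA9, RIOK2, FAM174A and FER, and the full androgen response element, inverted half-sites around a short spacer, in 0 of the 28 windows, against 0.0037% of all. These matches describe letters in a window and are no evidence of binding.

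Genes of RNA handling, genome maintenance and the centrosome were lower to different degrees. SKIC3, the scaffold of the Ski complex that feeds RNA to the cytoplasmic exosome for decay, had 107 in C4-2B-MDVR and 200 in C4-2B (−0.91). Its 3 probe sets, all counted as above the floor, ranged from −0.91 to −0.69. However, the one at −0.71 read 27.6 in C4-2B-MDVR, under the floor, and 45.2 in C4-2B, close to it. RIOK2, an atypical kinase needed to mature the small ribosomal subunit, read 442 in C4-2B-MDVR and 492 in C4-2B (−0.15), but its second probe set, under the floor in C4-2B-MDVR, differed by −0.75. SLF1, which helps bring the SMC5/6 complex to damaged DNA, had 249 in C4-2B-MDVR and 309 in C4-2B (−0.31). CETN3, a calcium-binding centrin of the centrosome, had 1180.8 in C4-2B-MDVR and 1735 in C4-2B (−0.56). GIN1, a gene derived from a retrotransposon integrase, had 220.2 in C4-2B-MDVR and 341 in C4-2B (−0.63), and −1.09 in its other probe set.

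Enzymes of the stretch included the lowest and the highest member. MBLAC2, a metallo-beta-lactamase fold protein that hydrolyses palmitoyl-CoA, had 250.2 in C4-2B-MDVR and 847 in C4-2B, a difference of −1.76 that left 29.5% of the C4-2B intensity. Its other probe set was under the floor on both arrays, and differed by −0.88. NUDT12, a peroxisomal hydrolase of NADH, had 84.4 in C4-2B-MDVR and 182 in C4-2B (−1.11), with its other probe set under the floor (−0.55). PPIP5K2, a kinase that makes inositol pyrophosphates, read 143 in C4-2B-MDVR and 203 in C4-2B (−0.50).

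PAM, which amidates the ends of peptide hormones and neuropeptides, ran the other way. It had 153 in C4-2B-MDVR and 91.6 in C4-2B, a difference of 0.74, and its second probe set above the floor read 90.6 in C4-2B-MDVR and 52.0 in C4-2B (0.80). GLRX, a glutaredoxin that removes glutathione from proteins, had 170.1 in C4-2B-MDVR and 152 in C4-2B (0.16), and ARSK, a lysosomal sulfatase, had 107 in C4-2B-MDVR and 99.5 in C4-2B (0.11). RFESD, which carries a Rieske iron-sulfur domain, differed by −0.23. CAST, the inhibitor of calpain proteases, read 611 in C4-2B-MDVR and 969.9 in C4-2B (−0.67). The highest and lowest of the 3 detected CAST probe sets were −0.23 and −0.98, so the size of its difference varied with the probe set.

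Membrane and signalling genes differed in both directions. RGMB, a co-receptor for bone morphogenetic proteins and the nearest member to CHD1 on the centromere side, had 211 in C4-2B-MDVR and 465 in C4-2B (−1.14). A second RGMB probe set read 118 in C4-2B-MDVR and 252 in C4-2B (−1.09), but another read 136 in C4-2B-MDVR and 150.0 in C4-2B (−0.14). TMEM161B, a multipass membrane protein, had 401 in C4-2B-MDVR and 748 in C4-2B (−0.90), with other probe sets above the floor at −0.73 and −0.39. ARRDC3, an arrestin-domain adaptor that sends membrane receptors for degradation, had 134 in C4-2B-MDVR and 203 in C4-2B (−0.59). FAM174A (−0.58) and LYSMD3 (−0.53), both small membrane proteins, were lower by about the median of the members.

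ADGRV1, an adhesion G protein-coupled receptor of sensory hair cells, had 66.0 in C4-2B-MDVR and 44.4 in C4-2B (0.57), close to the floor. RHOBTB3, a protein with BTB domains, had 144 in C4-2B-MDVR and 136 in C4-2B (0.09). All 4 of its probe sets above the floor were above 0, at up to 0.51. FER, a cytoplasmic tyrosine kinase at the distal end of the stretch, had 85.4 in C4-2B-MDVR and 81.6 in C4-2B (0.07), and its second probe set above the floor differed by −0.51, so its direction was not settled.

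**Figure D2:**
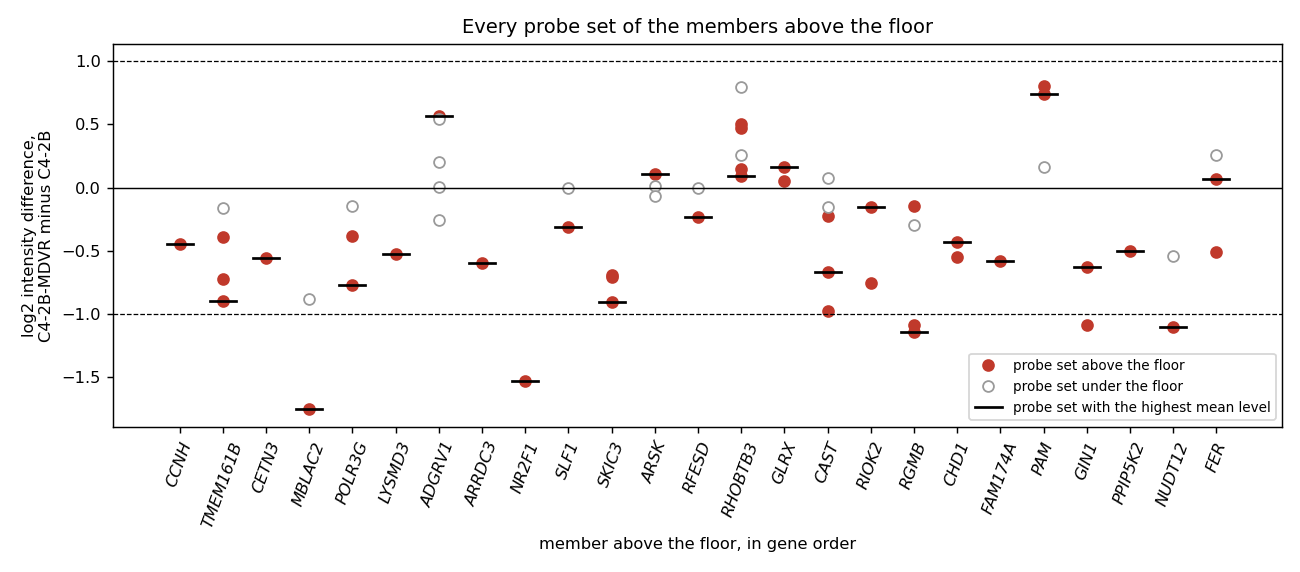
Log2 intensity difference, C4-2B-MDVR minus C4-2B (y axis), of every probe set of the 25 members above the floor, in gene order (x axis). Filled circles are probe sets above the floor, open circles probe sets under it, and the bar marks the probe set that stood for the gene. Among the filled circles those of RGMB, CAST and RIOK2 lie apart, and those of SKIC3 and PAM lie closer together.

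The remaining members were under the floor on both arrays, so no difference could be read for them. These 6 were MEF2C, KIAA0825, MCTP1, SPATA9, LIX1 and the organic anion transporter SLCO4C1, with log2 intensities of at most 5.33. Of the 43 member probe sets above the floor, 32 were below 0 and 6 were 2-fold or more lower, against backgrounds of 46.7% and 4.06% of all named probe sets above the floor, and 0 were 2-fold or more higher. Among 12 members with several probe sets above the floor, all probe sets were below 0 for 8 and above 0 for 3, and FER was mixed. The share of all probe sets 2-fold higher was not computed, nor was the split by sign over all genes. Nothing is therefore read from the count of 0 or from this split.

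Along the chromosome the lower members formed runs broken by a few genes near or above 0. From CCNH to SKIC3, 10 of 11 members above the floor were below 0, with ADGRV1 the exception and a median of −0.59. The next 4, from ARSK to GLRX, lay between −0.23 and 0.16, with a median of 0.10. From CAST to NUDT12, 8 of 9 were below 0 with a median of −0.58, and PAM was the exception. These runs were delimited after the values were seen. Genes next to each other could differ widely: RGMB was at −1.14 beside CHD1 at −0.43, and PAM at 0.74 beside GIN1 at −0.63.

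**Figure D3:**
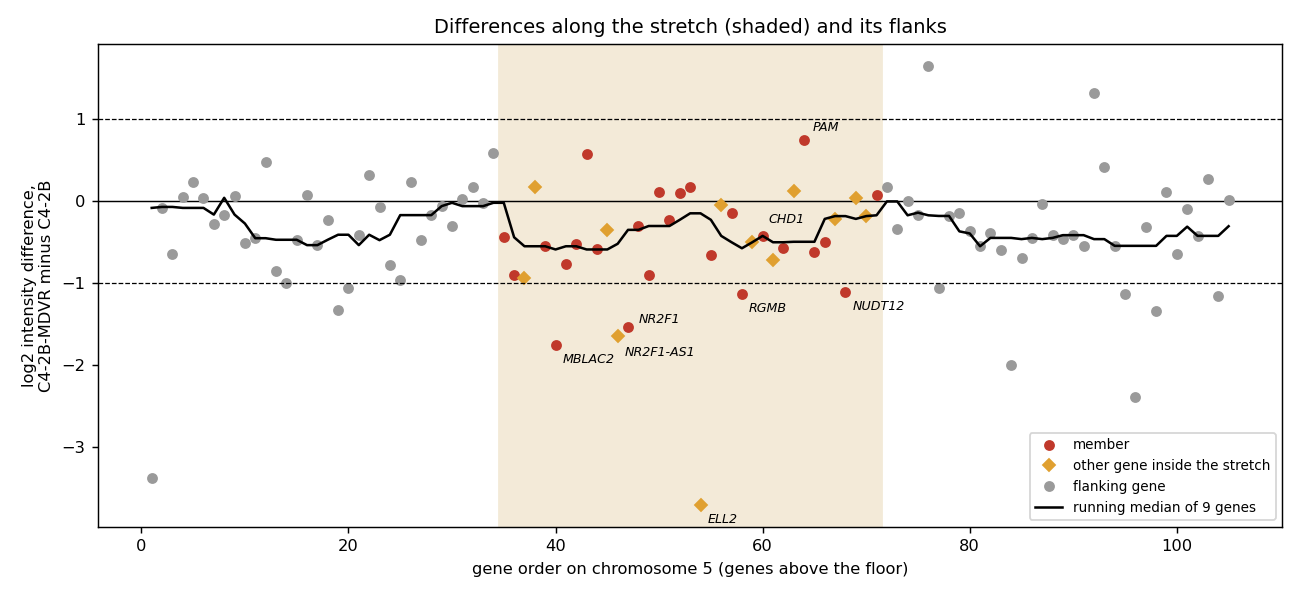
Log2 intensity difference, C4-2B-MDVR minus C4-2B (y axis), of genes above the floor in their order on chromosome 5 (x axis). Circles in the shaded stretch are the 25 members, diamonds the 12 other genes inside it, grey circles 34 genes on each side, the black line a running median of 9 genes, and dashed lines 2-fold. The black line runs below 0 along the stretch and both flanks, except at TBCA in the flank before it, and ELL2 lies lowest at −3.70.

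Some neighbours lie head to head and start within a short interval. The bases between their starts are shown, because they lie upstream of both genes of a pair. They are given 5′ to 3′ on the plus strand, from RefSeq on GRCh38.p14, at chr5:95554978-95555100 for SKIC3 and ARSK, chr5:103120139-103120300 for GIN1 and PPIP5K2, and chr5:94618605-94618668 for KIAA0825 and SLF1. Capitals mark GC boxes (GGGCGG or its complement CCGCCC).
SKIC3-ARSK: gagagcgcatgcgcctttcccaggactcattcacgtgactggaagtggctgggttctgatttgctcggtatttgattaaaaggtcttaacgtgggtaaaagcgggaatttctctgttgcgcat
GIN1-PPIP5K2: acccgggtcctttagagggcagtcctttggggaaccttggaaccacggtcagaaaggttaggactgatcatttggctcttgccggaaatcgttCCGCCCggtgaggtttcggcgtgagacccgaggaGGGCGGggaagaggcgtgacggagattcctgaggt
KIAA0825-SLF1: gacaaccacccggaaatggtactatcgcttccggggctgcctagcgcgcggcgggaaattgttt

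The 123 bases between SKIC3 and ARSK held 0 GC boxes, and the 162 bases between GIN1 and PPIP5K2 held 2. GIN1 (−0.63) and PPIP5K2 (−0.50) were both lower, whereas SKIC3 was at −0.91 and ARSK at 0.11. KIAA0825 was under the floor, so that pair could not be compared. TMEM161B and its divergent noncoding transcript TMEM161B-DT, which is no member, were both lower, at −0.90 and −0.94.

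Besides the members, 23 other genes with a named probe set lie between RASA1 and FER in RefSeq gene order, and 12 of them were above the floor. Their median difference was −0.29 and 9 were below 0, against 44.8% of all genes above the floor. The 5 protein-coding ones had a median of −0.19 and the 7 noncoding ones a median of −0.51. By the 2-fold threshold ELL2 and NR2F1-AS1 were lower and 0 were higher, against backgrounds of 3.50% and 3.17%. ELL2, a transcription elongation factor that androgen induces in prostate cells, had 85.5 in C4-2B-MDVR and 1115 in C4-2B (−3.70). Its other 2 probe sets above the floor differed by −2.95 and −3.90. The one at −3.90 read 13.8 in C4-2B-MDVR, under the floor, so the size of that difference is uncertain. ELL2 lies between GLRX (0.16) and CAST (−0.67), neither of which came near −3.70. The other 4 protein-coding genes above the floor, ERAP1 (−0.05), MACIR (−0.22), EFNA5 (0.04) and FBXL17 (−0.19), were close to 0.

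Much of chromosome 5 was shifted in the same direction as the stretch. Over all 575 chromosome 5 genes above the floor the median difference was −0.18, with 65.9% below 0 and 7.48% 2-fold or more lower. These include the stretch and its members, which were chosen by their differences. For the 470 genes outside the stretch and the 34 on each side of it, the median was −0.14. Of these, 64.0% were below 0 and 5.74% were 2-fold or more lower. For all genes on other chromosomes the median was 0.05, with 43.8% below 0 and 3.32% 2-fold or more lower. The 34 genes before the stretch had a median of −0.21, with 4 of 34 genes 2-fold or more lower, and the 34 genes after it one of −0.41, with 6 of 34 2-fold or more lower and 2 higher. The nearest gene that was 2-fold or more different was ZFYVE16 (−1.06) on the side before the stretch. On the side after it TSLP had a difference of 1.64 and is 1 of the 2 higher genes counted, but its C4-2B value lay under the floor, so it is known only to be at least 1.24-fold higher in C4-2B-MDVR and does not reach 2-fold by that bound. The nearest one above the floor on both arrays was WDR36 (−1.07), named after its value was seen.

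All 37 genes above the floor between RASA1 and FER, members included, had a median of −0.50. In 15 other blocks of 34 neighbouring genes along chromosome 5 the median ranged from −0.41 to 0.12 and was below 0 in 14. The block above 0 ran from CTNNA1 to PCDHB18P, and the lowest was the flank just after the stretch. The stretch was delimited with these values in view, so its place at the low end is a description. Among the 22 autosomes chromosome 5 came 3rd from the lowest by median, after chromosomes 13 (−0.47) and 18 (−0.21).

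**Figure D4:**
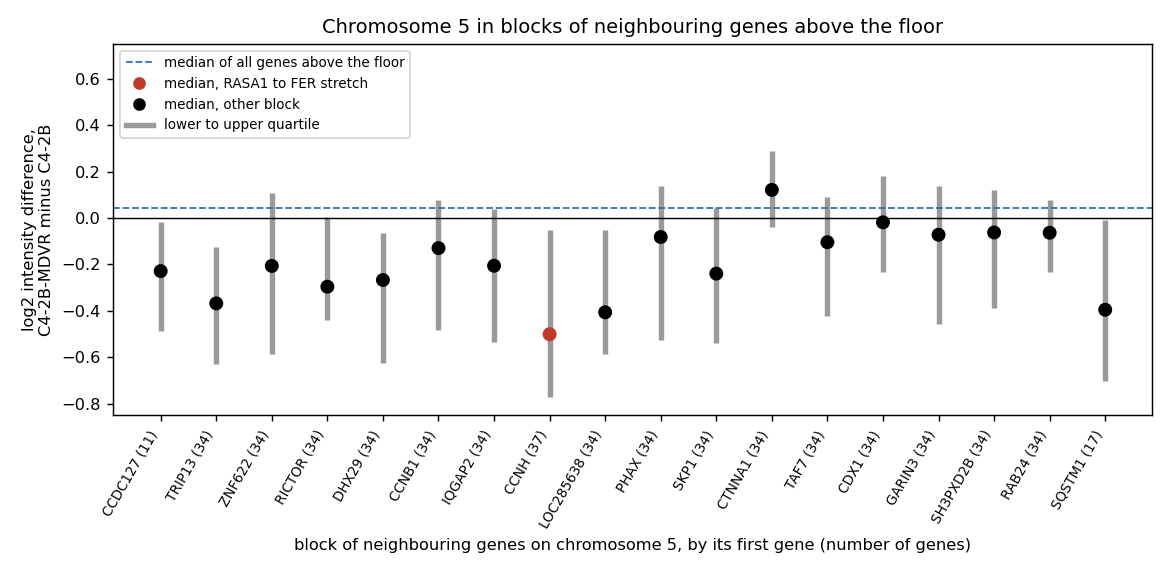
Median log2 intensity difference, C4-2B-MDVR minus C4-2B (points, y axis), and the range between quartiles (bars) for successive blocks of genes above the floor on chromosome 5 (x axis, with the number of genes). The stretch from RASA1 to FER (red) has a median of −0.50, and most other blocks lie between it and 0, below the median of all genes at 0.04 (dashed).

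The share below 0 differed with the level at which genes were read, among the members and among all genes. For the 19 members with a mean log2 intensity of 7 or more the median was −0.58 and 17 were below 0, RHOBTB3 and GLRX being the exceptions. Within them the median did not change steadily with level: −0.59 from 7 to 8, −0.55 from 8 to 9 and −0.61 from 9 upward. The 6 members of lower intensity had a median of 0.09 and ranged from −1.11 to 0.74, with NUDT12 and RFESD below 0. Over all genes above the floor the median was −0.01 from 7 upward, with 51.3% below 0. Under 7 it was 0.11, with 33.8% below 0, near the share among the 6 members there. For chromosome 5 genes outside the stretch it was −0.29 from 7 upward, with 77.4% below 0. The part that level played in the members' differences was not tested.

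**Figure D5:**
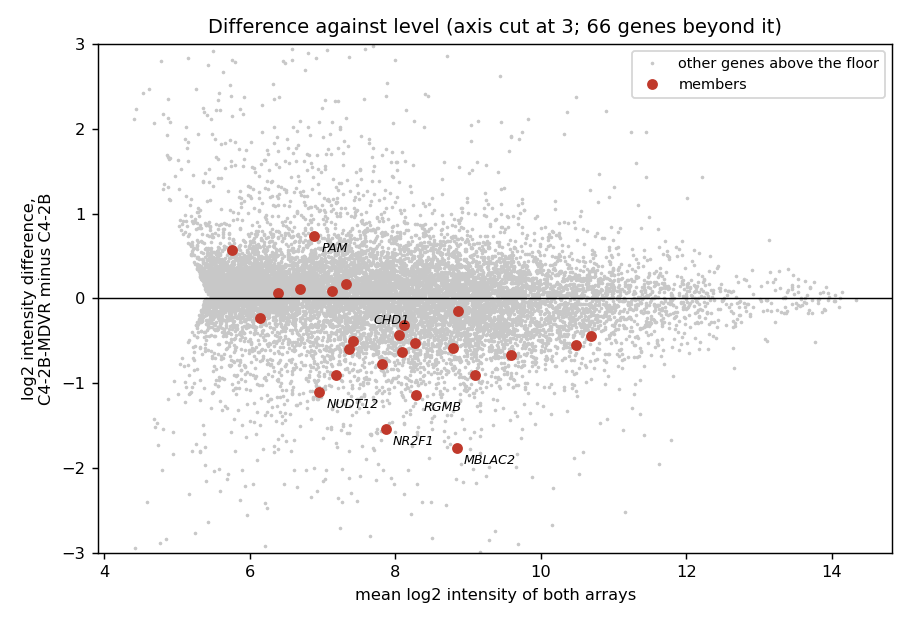
Log2 intensity difference, C4-2B-MDVR minus C4-2B (y axis, limited to 3 either way, with 66 genes beyond), against the mean log2 intensity of both arrays (x axis) for genes above the floor. Members are red: from a mean of 7 upward 17 of 19 lie below 0, against 51.3% of all genes. The 6 members to the left of it lie mostly near or above 0, where 33.8% of all genes are below 0.

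Relatives and partners of the members elsewhere in the genome did not share a direction. Across 14 lists, 53 genes besides the members were above the floor, with a median difference of 0.0033. Of the 53, 26 were below 0, against 44.8% of all genes above the floor. By the 2-fold threshold SMC5 (−1.06) was lower and CAPN1 (1.01) higher, 1 of 53 in each direction. The backgrounds were 3.50% of genes lower and 3.17% higher. The lists were written with earlier results of these arrays known.

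The other CHD remodellers were not lower as a group. Of 8 relatives, all above the floor, 7 were above 0 and 1 below, against 44.8% of all genes below 0, and the median was 0.16. CHD4, the ATPase of the NuRD complex, had 899 in C4-2B-MDVR and 661 in C4-2B (0.44), and CHD9 was the exception, with 125 in C4-2B-MDVR and 236 in C4-2B (−0.91). The 9 elongation partners of CHD1 had a median of −0.03 with 0 genes beyond 2-fold, against 3.50% of all genes lower and 3.17% higher. Among them the FACT subunits SSRP1 (−0.12) and SUPT16H (0.0033) were close to 0, and LEO1 of the PAF complex was lowest at −0.66.

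Of 4 transcription factors that published work ties to CHD1 loss in antiandrogen-resistant prostate cancer, only 2 were above the floor. Of these, 0 were 2-fold or more higher, against 3.17% of all genes, and with 2 genes nothing is read from that count. Besides NR2F1, which was lower (−1.54), TBX2 was at 0.11, with 77.9 in C4-2B-MDVR and 72.3 in C4-2B, and NR3C1 and POU3F2 were under the floor on both arrays. MAP3K7, a kinase gene on chromosome 6 that is often lost together with CHD1, had 108 in C4-2B-MDVR and 99.0 in C4-2B (0.12).

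Partners in shared complexes stood closer to 0 than the 5q subunit for CCNH, SKIC3 and POLR3G, but not in every case for SLF1. The 5q genes were chosen by their differences on these same arrays and the partners were not. These values are therefore a description, and nothing about the complexes is read from them. For CCNH (−0.45) the kinase CDK7 was at 0.18 and the assembly factor MNAT1 at 0.21. For SKIC3 (−0.91) the helicase SKIC2 was at −0.06 and SKIC8 at 0.06. For POLR3G (−0.77) the 8 other RNA polymerase III subunits measured lay between −0.34 and 0.25, with its paralogue POLR3GL at 0.12. For SLF1 (−0.31), SLF2 was at 0.08, RAD18 at −0.42, SMC6 at −0.13 and SMC5 at −1.06.

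Proteases held by calpastatin and relatives of other members were mixed. Beside CAST (−0.67), the calpain gene CAPN1 had 384 in C4-2B-MDVR and 191 in C4-2B (1.01), while CAPN2 was at −0.54 and the small subunit CAPNS1 at −0.09. Beside PPIP5K2 (−0.50), its paralogue PPIP5K1 was at −0.33, IP6K1 at −0.15 and IP6K2 at 0.38, and the Ras-GAP genes RASA2 and RASA3 were at −0.32 and −0.30, with NF1 under the floor. Arrestin-domain relatives of ARRDC3 ranged from −0.48 for ARRDC4 to 0.94 for TXNIP, with ARRDC1 at −0.41 and ARRDC2 at 0.28. Of the glutaredoxins, GLRX2 was at −0.56, GLRX3 at 0.15 and GLRX5 at 0.09. MEF2A (−0.02) and MEF2D (0.28) were within 2-fold, as was the COUP factor NR2F6 (−0.38).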

How the data were processed

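Per the labels' protocols, total RNA from 1 sample each of C4-2B-MDVR and C4-2B was amplified with a whole-transcript kit, fragmented, labelled with biotin and run on Affymetrix arrays. The authors deposited an intensity for each of 54675 probe sets, linear as judged from the range of values. How they corrected background, normalized and summarized, and which genome build applies, was not given in the sources used here. The table held 0 value columns besides these 2 arrays.

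The log2 of the deposited values was analysed without further scaling. Probe sets with 1 gene symbol in the platform annotation of 2016 (41097 of 42898 listed) were matched by Entrez identifier to NCBI RefSeq genes (GRCh38.p14), which served for names and gene order, and, for promoter windows, sequence. The floor was each array's 50th percentile, 2-fold the threshold. All members were named, with other genes of the stretch beyond 2-fold, the nearest such gene on each side and the lists of related genes. Members and lists were chosen with earlier results of these data known. One array per line allows no test, and precision is limited by the number of arrays. Steps were tested on simulated data. Alternatives were other scalings (median, quantile, loess with a span of 0.3), probe set rules, floors and thresholds. Some listed genes are not reported here. Software was matplotlib 3.10.9, statsmodels 0.14.6, scipy 1.17.1, pandas 2.3.3 and numpy 2.4.6 under Python 3.11.15.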

Additional observations from a re-analysis of the deposited data

How the results depend on the processing

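No paired analysis was possible because each line was measured on 1 array. The median difference of the members was −0.58 with median centring, −0.47 with quantile normalization, −0.52 with loess, −0.50 with the mean of all probe sets, −0.50 and −0.58 with the floor at the 25th and 75th percentile, and −0.43 without a floor. CHD1 was at −0.48 with median centring, −0.36 with quantile normalization, −0.42 with loess and −0.49 with the mean of its probe sets, whether or not those under the floor were taken in. The 4 members 2-fold or more lower became 2 with the mean of all probe sets, where RGMB was at −0.67 and NUDT12 at −0.83, and 3 with the mean of those above the floor, where RGMB was at −0.79. They became 10 at a 1.5-fold threshold, with 1 higher, and 1 at 3-fold, where 1.20% of all genes were lower. Over all genes 2.57% were 2-fold or more lower with the mean of all probe sets. Of the other genes inside the stretch 1, in place of 2, was 2-fold or more lower with the mean of all probe sets, and 3 were with loess. Related genes beyond 2-fold numbered 1, in place of 2, with median centring and with either mean of probe sets, and 3 with quantile normalization. Other floors, values raised to the floor and added probe sets with several symbols left each member's value unchanged, so these alternatives could not change a sign. With them included, 241 of 244 member values under 10 alternatives kept their sign. The 3 others were those of FER, at −0.00048 with loess, −0.062 with the mean of all probe sets and −0.22 with the mean of those above the floor. The cause was not tested. With 1 array per line, the error of small differences such as those of RIOK2, RFESD or ARSK is unknown.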

Other observations

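The genes around the stretch held further large differences, named here after their values were seen. Before the stretch IQGAP2, a scaffold protein of the IQGAP family, had 65.6 in C4-2B-MDVR and 682 in C4-2B (−3.38). SERINC5, a membrane protein that restricts retroviruses, had 828 in C4-2B-MDVR and 2079 in C4-2B (−1.33), and HOMER1, a synaptic scaffold gene, had 635 in C4-2B-MDVR and 1272 in C4-2B. After it TNFAIP8, an apoptosis regulator induced by tumour necrosis factor, had 77.7 in C4-2B-MDVR and 406 in C4-2B (−2.39), and TRIM36, a ubiquitin ligase, had 59.1 in C4-2B-MDVR and 236 in C4-2B. SRFBP1 (−1.34), CEP120 (−1.16), DMXL1 (−1.14) and WDR36 (−1.07) were lower too, while SEMA6A, a semaphorin, was higher with 136 in C4-2B-MDVR and 54.7 in C4-2B (1.31). The genes between these were mostly lower by less, as the medians of −0.21 before and −0.41 after the stretch show.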
